A study of Homo sapiens with 6 samples.

Results

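The genes described here belong to families of ubiquitin ligases, their substrate adaptors, ubiquitin-conjugating enzymes and deubiquitinases, followed in the human lung adenocarcinoma line HCC827. They were taken by gene name, as the rows of the deposited table that begin with TRIM, RNF, FBXO, FBXL, FBXW, KLHL, USP, UBE2, ASB, SOCS, NEDD4, WWP, HECW, MARCH or PELI, leaving out RNF43, USP18 and antisense rows. This gave 49 of the table's 4439 genes, of which 47 were protein-coding and 2 were pseudogenes, USP32P1 and USP8P1. MARCHF3 and MARCHF4 stood in the table as dates and were recovered by gene ID. No row of the table carried an FBXW, ASB, NEDD4 or WWP name.

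Messenger RNA had been sequenced from 3 libraries of parental HCC827, a line with an activating EGFR mutation that is sensitive to the EGFR inhibitor osimertinib, and from 3 libraries of HCC827OR, its resistant derivative. HCC827OR was selected in rising osimertinib, from 10 nM through 50, 100 and 500 nM to 1 and 5 µM, with 1 month at each dose, and was defined by growth at 5 µM. Whether the drug was present at harvest, whether HCC827OR is a single clone and whether the libraries came from separate cultures are not stated. The p-values therefore set the difference between the lines against a spread between libraries that may be only technical. The table lists only genes that the authors called different, with an adjusted p below 0.05 and at least a 2-fold change, so unlisted family members are not analysed here.

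Ubiquitin is attached to proteins by a relay of enzymes. An activating enzyme (E1) passes it to a conjugating enzyme (E2, encoded by most UBE2 genes), and a ligase (E3) chooses the substrate. TRIM, RNF, MARCH and Pellino proteins are mostly RING-type ligases, HECW proteins are HECT-type ligases, and F-box, KLHL and SOCS proteins are adaptors that bring substrates to cullin-based ligases. Deubiquitinases such as the USP enzymes remove ubiquitin again. EGFR itself is a classical substrate of this system in epithelial cells.

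Values are the authors' normalized expression values, whose unit is not named and whose read depth is unknown, shown as mean ± SD (n = 3 libraries in each line). Over the table they summed to between 115790 and 145175 in parental and between 149956 and 152065 in resistant libraries. Of 10 epithelial markers 9 were in the table, all lower in the resistant line, with a summed value of 6853 to 8451 in parental and 2165 to 2207 in resistant libraries. Of 10 fibroblast markers 5 were in the table, with a summed value of 0.43 to 0.8 in parental and 32.1 to 35.7 in resistant libraries, and POSTN was listed at 0 in the parental line. Of 10 blood and endothelial markers PECAM1 and VWF were in the table, with sums of 4.95 to 10.2 and 0.95 to 1.56. Nearly all of that sum was PECAM1, which fell, while VWF rose from 0.01 ± 0.01 to 0.0767 ± 0.0208. Of 10 retina markers only PDE6A was in the table, at 0.28 or less. These marker levels moved with the lines, and their part in the results below was not tested.

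Both directions were common. By the direction in the authors' deposited table, 27 of the 49 members were higher and 22 lower in the resistant line, beside 53.9% higher and 46.1% lower among all its genes. By limma on log2(value + 1), with Benjamini-Hochberg adjustment over the 3332 genes tested, all 41 members that could be tested were called, 22 higher and 19 lower, against a background of 97.5% called (52.5% higher and 45% lower). These counts describe the members and give no support for a difference, since the table was picked for differing between the same libraries and 10 of the 41 reached the minimum value through their higher line alone. Those 10 were FBXO15, HECW1, MARCHF4, RNF112, RNF125, RNF182, RNF223, TRIM15, TRIM36 and TRIM46. The adjusted p-values given below, for these 10 above all, likewise describe the values and give no independent support. The remaining 8 members were too low to be tested. The 3 libraries of one line lay wholly above those of the other in all 49 members, as in 95.2% of the table's genes. The median log2 fold change was 0.94 among the 41 members and 0.74 among all genes tested, and the median size without sign was 1.18 against 1.32. No tested member lay between -0.67 and 0.88. The members' signed median thus mainly tells which direction held more genes and is not a typical change. Fewer cells that express a gene and less of its RNA per cell cannot be told apart in these bulk libraries. Below, values of single libraries are given as parental 1 to 3 against resistant 1 to 3.

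**Figure D1:**
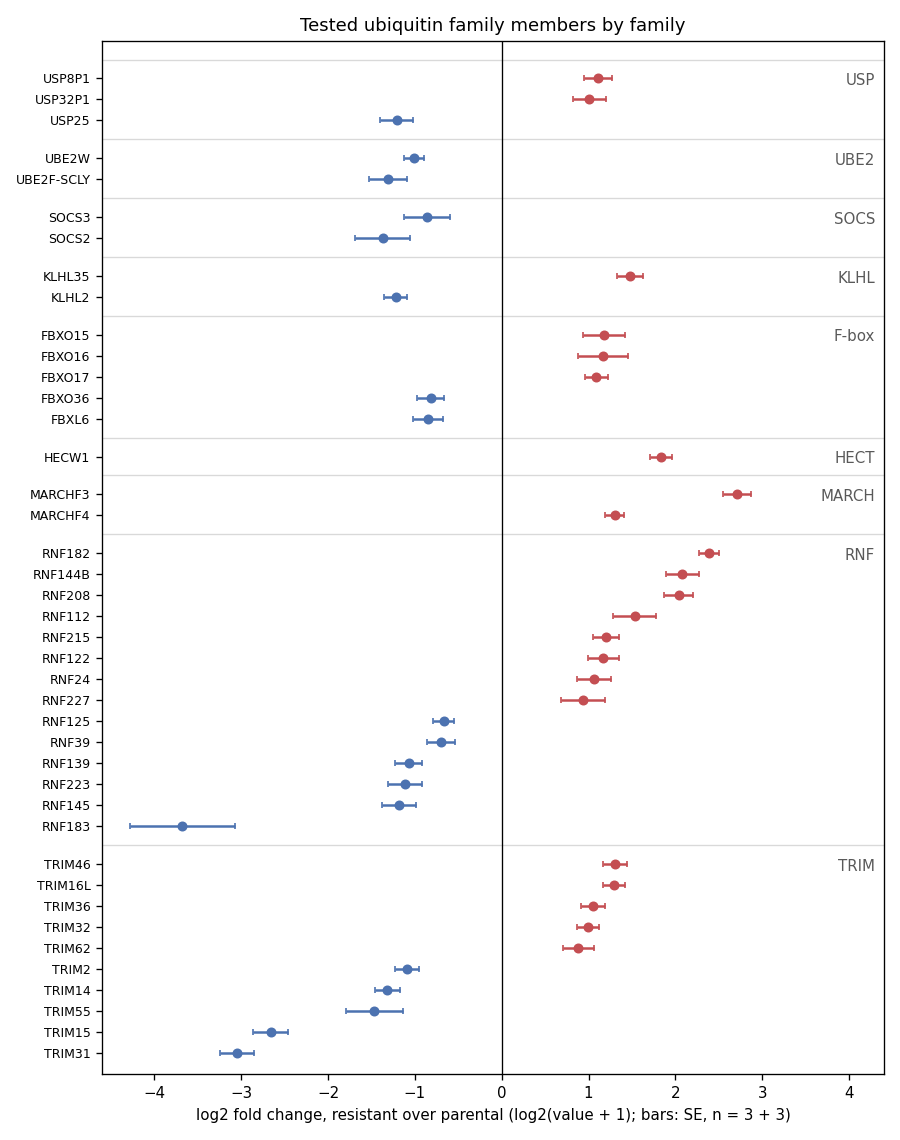
Horizontal axis, log2 fold change of the resistant over the parental line on log2(value + 1) by limma, with bars of 1 SE (3 libraries per line); vertical axis, the 41 tested members by family. TRIM and RNF members lie on both sides of 0, from -3.68 in RNF183 to 2.39 in RNF182, while both MARCH members lie above 0 and both SOCS and both UBE2 members below it.

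Among the TRIM ligases, 5 of the 10 tested rose and 5 fell. On the log2(value + 1) scale the largest fall was that of TRIM31, while by ratio of means TRIM15 fell more. TRIM31 (chromosome 6, 30102897 to 30113106 in GRCh38) is a ligase best known from the gut epithelium. Parental libraries held 26.84, 28.15 and 40.31 of it and resistant libraries 3.07, 3.28 and 2.38, a 10.9-fold fall (log2 fold change -3.05, SE 0.193, limma adjusted p = 8.69e-06). The neighbouring gene TRIM15 (30163206 to 30172696), which encodes a protein of focal adhesions, had 9.63, 6.94 and 10.89 against 0.42, 0.85 and 0.52, a 15.3-fold fall (log2 fold change -2.66, SE 0.2, limma adjusted p = 1.88e-05). In both genes the lines stood far apart and all 3 resistant libraries were low. Between them lies TRIM10 (30151945 to 30160934), a gene linked to red cell differentiation in mouse, which was too low to be tested, with 1.41, 0.89 and 1.33 against 0.17, 0.2 and 0.32.

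Genes around these neighbours on chromosome 6 went both ways. DDR1, a collagen receptor, fell from 107 ± 14.8 to 40.4 ± 3.62 and SFTA2, a lung secretory gene, from 197 ± 3.64 to 1.19 ± 0.922, and UBD on the other side of TRIM31 also fell, while the class I genes HLA-C and HLA-B rose. RNF39 (30070266 to 30075887), also in this stretch, fell from 3.54 ± 0.569 to 1.8 ± 0.331 (log2 fold change -0.70, limma adjusted p = 0.00434). HLA-C, which starts 1159 kb beyond the TRIM31 start, was 251 ± 38.4 and 619 ± 27.1, and HLA-B, at 1244 kb, was 203 ± 52.5 and 984 ± 77.9. Because HLA genes vary between people and resemble each other, their values are uncertain. Between 29 and 34 Mb the table held 40 genes, 26 higher and 14 lower, and 4 of the 5 family members there were lower. The exception was USP8P1, a processed pseudogene that lies 1162 kb beyond the TRIM31 start and whose reads may come from its parent USP8; it had 4.33, 3.33 and 5.01 against 10.71, 10.24 and 9.7, a 2.42-fold rise (log2 fold change 1.11, SE 0.162, limma adjusted p = 4.28e-04). TRIM31-AS1, on the opposite strand, shares 174 exonic bases with TRIM31 and was 2.1 ± 0.554 and 0.0867 ± 0.15. Whether counting used strand is not stated, so the reads of such pairs cannot be told apart.

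**Figure D2:**
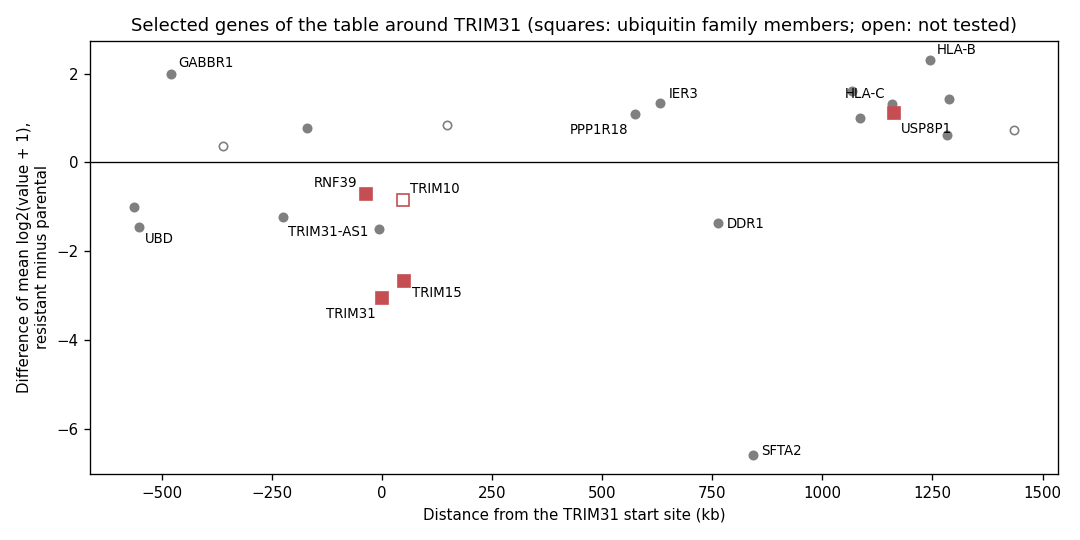
Horizontal axis, distance of each gene's start from the TRIM31 start in kb; vertical axis, difference of mean log2(value + 1), resistant minus parental; squares are ubiquitin family members, circles other genes of the table reported here, open symbols genes too low to be tested. RNF39, TRIM31, TRIM10 and TRIM15 lie below 0, as do DDR1 and SFTA2 at -1.37 and -6.58, while HLA-C and HLA-B lie above it at 1.31 and 2.30.

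The starts of these 3 TRIM genes and of SOCS3 are shown because the TRIM genes were lower together within a short stretch, and because SOCS genes are known targets of STAT factors. Each sequence runs from 250 bases before to 50 bases after the gene start in RefSeq on GRCh38.p14 (TRIM10 at chr6:30161162-30161461, minus strand; TRIM15 at chr6:30163296-30163595, plus strand; TRIM31 at chr6:30113041-30113340, minus strand; SOCS3 at chr17:78360876-78361175, minus strand). The gene positions given elsewhere here come from GENCODE and differ from these RefSeq starts. By GENCODE, SOCS3 spans 78356778 to 78360077 and TRIM10 30151945 to 30160934, so both windows lie wholly upstream of those genes. The TRIM15 window lies inside its GENCODE gene, and only the TRIM31 window holds the GENCODE start. Capitals mark matches, on either strand, to a STAT motif (TTCNNNGAA), an interferon response motif (GAAANNGAA) or an E-box (CAGGTG).
TRIM10: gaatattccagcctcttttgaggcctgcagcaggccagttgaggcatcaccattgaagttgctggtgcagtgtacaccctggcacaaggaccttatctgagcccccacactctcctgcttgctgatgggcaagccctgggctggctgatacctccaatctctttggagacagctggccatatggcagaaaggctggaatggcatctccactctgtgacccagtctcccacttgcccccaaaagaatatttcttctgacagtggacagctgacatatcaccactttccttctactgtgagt
TRIM15: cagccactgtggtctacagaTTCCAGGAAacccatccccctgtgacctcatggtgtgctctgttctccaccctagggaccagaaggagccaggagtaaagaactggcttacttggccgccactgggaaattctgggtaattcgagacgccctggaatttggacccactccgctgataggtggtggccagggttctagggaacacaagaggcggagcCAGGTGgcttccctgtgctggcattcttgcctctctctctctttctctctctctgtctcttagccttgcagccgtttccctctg
TRIM31: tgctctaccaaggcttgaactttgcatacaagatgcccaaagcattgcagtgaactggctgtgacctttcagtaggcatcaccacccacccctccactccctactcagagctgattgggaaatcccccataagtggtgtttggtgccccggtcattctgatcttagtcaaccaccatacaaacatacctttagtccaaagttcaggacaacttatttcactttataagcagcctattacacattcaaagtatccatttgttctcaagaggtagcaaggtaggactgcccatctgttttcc
SOCS3: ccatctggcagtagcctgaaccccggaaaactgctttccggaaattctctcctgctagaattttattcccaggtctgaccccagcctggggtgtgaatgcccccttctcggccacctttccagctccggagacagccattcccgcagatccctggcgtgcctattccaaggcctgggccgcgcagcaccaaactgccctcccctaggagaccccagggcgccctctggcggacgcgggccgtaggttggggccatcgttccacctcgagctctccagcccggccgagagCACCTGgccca
The TRIM15 window held 1 STAT match and 1 E-box match, the SOCS3 window held 1 E-box match, and these windows of TRIM10 and TRIM31 held none of the 3 motifs. Whether a STAT motif lies at the GENCODE start of SOCS3 was not tested. Over the 37 members found in the promoter table, 2 held the STAT motif (5.41%, against 7.88% of 27305 promoters), 2 the interferon motif (5.41% against 8.29%) and 7 the E-box (18.9% against 20.6%). These are matches of letters only. The interferon motif was found in TRIM14 and TRIM2.

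TRIM14, an adaptor of antiviral signalling (chromosome 9), had 22.6, 21.65 and 28.31 against 9.54, 9.32 and 8.32, a 2.67-fold fall (log2 fold change -1.32, SE 0.143, limma adjusted p = 1.05e-04). TRIM2, a ligase for neurofilament light chain in mouse neurons, fell from 7.68 ± 0.722 to 3.08 ± 0.141 (log2 fold change -1.09). TRIM55 (MuRF2), a sarcomere-associated ligase of muscle, had 7.69, 8.05 and 17.94 against 2.92, 4.12 and 2.48 (log2 fold change -1.47, SE 0.328, limma adjusted p = 0.00345). Its parental library 3 was well above the other parental libraries, and the log2 fold change without that library was -1.11. TRIM14 and TRIM2 varied less within each line relative to their means, although parental library 3 was the highest parental library for TRIM14 too.

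The TRIM genes that rose had log2 fold changes of 0.88 to 1.30. TRIM46, which organises microtubules at the axon initial segment of neurons, had 0.6, 0.49 and 0.9 against 3.04, 2.85 and 3.37, a 4.65-fold rise (log2 fold change 1.30, SE 0.137, limma adjusted p = 8.96e-05). TRIM16L, a shortened relative of TRIM16 that may share reads with it, rose from 11.6 ± 1.31 to 29.9 ± 1.29, and TRIM32, a ligase mutated in a limb-girdle muscular dystrophy, rose 2.09-fold, from 9.25 ± 0.985 to 19.4 ± 0.559. TRIM62 rose from 1.38 ± 0.505 to 3.31 ± 0.252, a call that was lost (limma adjusted p = 0.0599) when libraries were scaled to equal median log ratios. TRIM36, a microtubule-associated ligase, rose from 0.147 ± 0.0929 to 1.4 ± 0.404, a fold of 9.52 that became 14.7 without parental library 1. TRIM7, a glycogenin-binding ligase, was too low to be tested, with 0.03, 0.03 and 0.1 against 0.3, 0.38 and 0.61; its fold was 8.06 with all libraries and 14.3 without parental library 3.

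The RNF genes held the widest spread, 8 of 14 tested rising and 6 falling. RNF183, a membrane-bound ligase of kidney epithelium (chromosome 9, 113297093 to 113303376), had 13.63, 14.35 and 73.11 against 0.83, 0.77 and 1.44. The fall was 33.3-fold with all libraries and 13.8-fold without parental library 3, which was far above the other parental libraries (log2 fold change -3.68, SE 0.606, limma adjusted p = 7.81e-04, and log2 fold change -2.91 without that library). RNF223 fell 6.55-fold, from 1.83 ± 0.816 to 0.28 ± 0.0624.

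The related membrane ligases RNF139 (TRC8) and RNF145 fell together. Both sit in the endoplasmic reticulum and are linked to the sterol-dependent turnover of HMG-CoA reductase. RNF145 had 81.58, 87.8 and 53.15 against 29.92, 32.32 and 32.11, a 2.36-fold fall (log2 fold change -1.18, SE 0.196, limma adjusted p = 8.05e-04), and RNF139 fell 2.33-fold, from 11.3 ± 1.85 to 4.86 ± 0.302. Parental library 3 was the lowest of the parental libraries for RNF145 and the highest for RNF139. RNF125, a ligase that acts on the RNA sensor RIG-I, fell 2.71-fold, from 1.44 ± 0.28 to 0.533 ± 0.085.

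The paralogs RNF144A and RNF144B, ligases of the RING-between-RING type, lay on opposite sides. RNF144B (chromosome 6, 18387350 to 18468874), a p53 target, had 0.55, 0.56 and 1.31 against 6.58, 6.37 and 6.6, an 8.08-fold rise (log2 fold change 2.08, SE 0.189, limma adjusted p = 4.42e-05). RNF144A (chromosome 2) had 0.48, 0.26 and 0.24 in parental libraries and was listed at 0 in all 3 resistant libraries, too low to be tested. The libraries of the lines did not overlap in either gene, as in 95.2% of the table's genes. No test of the opposite directions was run.

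RNF182, a ligase described in brain (chromosome 6, 13924446 to 13980302), rose most among RNF genes on the log2 scale. Its values were 0.2, 0.25 and 0.31 against 5.52, 5.87 and 5.33, a 22-fold rise (log2 fold change 2.39, SE 0.117, limma adjusted p = 3.10e-06). RNF208 had 2.87, 1.98 and 3.2 against 13.35, 14.34 and 14.46, a 5.24-fold rise (log2 fold change 2.04, SE 0.168, limma adjusted p = 2.76e-05). Both were tight within the resistant line. RNF112, known from neuronal differentiation, had 0.23, 0.39 and 0.31 against 2.6, 4.48 and 1.74 (log2 fold change 1.53, SE 0.243, limma adjusted p = 6.54e-04), with resistant libraries that differed more among themselves.

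The closely related genes RNF24 and RNF122 both rose, RNF24 2.28-fold, from 4.48 ± 1.32 to 10.2 ± 0.569, and RNF122 2.85-fold, from 1.91 ± 0.566 to 5.45 ± 0.32. RNF215 rose 2.46-fold, from 7.32 ± 1.25 to 18 ± 1.22, and shares 3098 of its 10624 annotated exonic bases with CCDC157 on the opposite strand. RNF227 had 2.69, 2.01 and 2.61 against 4.52, 8.55 and 4.33 (log2 fold change 0.94, limma adjusted p = 0.00838, and adjusted p = 0.157 with libraries scaled to equal median log ratios), resistant library 2 being the highest. RNF150 was barely detected, with 0, 0.01 and 0 against 0.08, 0.11 and 0.03, and was not tested.

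MARCH proteins are membrane-spanning RING ligases that remove receptors from the cell surface, and both members rose. MARCHF3 (chromosome 5, 126867714 to 127030808) had 1.07, 0.77 and 1.12 against 12.07, 10.48 and 13.47, a 12.2-fold rise (log2 fold change 2.71, SE 0.158, limma adjusted p = 6.35e-06). MARCHF4 (chromosome 2, 216257865 to 216372027) had 0.41, 0.33 and 0.5 against 2.62, 2.29 and 2.55, a 6.02-fold rise (log2 fold change 1.30, SE 0.107, limma adjusted p = 2.80e-05). On the log2(value + 1) scale MARCHF3 had the largest rise of all tested members. By ratio of means HECW1 (35.7-fold) and RNF182 (22-fold) rose more.

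HECW1 (NEDL1), a HECT ligase of the NEDD4 family known from neurons (chromosome 7, 43112599 to 43566001), was very low in the parental libraries, at 0.03, 0.19 and 0.02, and had 3.35, 2.53 and 2.69 in resistant libraries (log2 fold change 1.83, SE 0.126, limma adjusted p = 1.22e-05). The fold was 35.7, and 114 without parental library 2, which held most of the parental signal. The antisense gene LUARIS lies within the HECW1 locus, shares 153 of its 13965 exonic bases and was 0.0633 ± 0.0404 in parental and 10 ± 0.133 in resistant libraries. How many of the HECW1 reads came from the opposite strand was not tested.

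**Figure D3:**
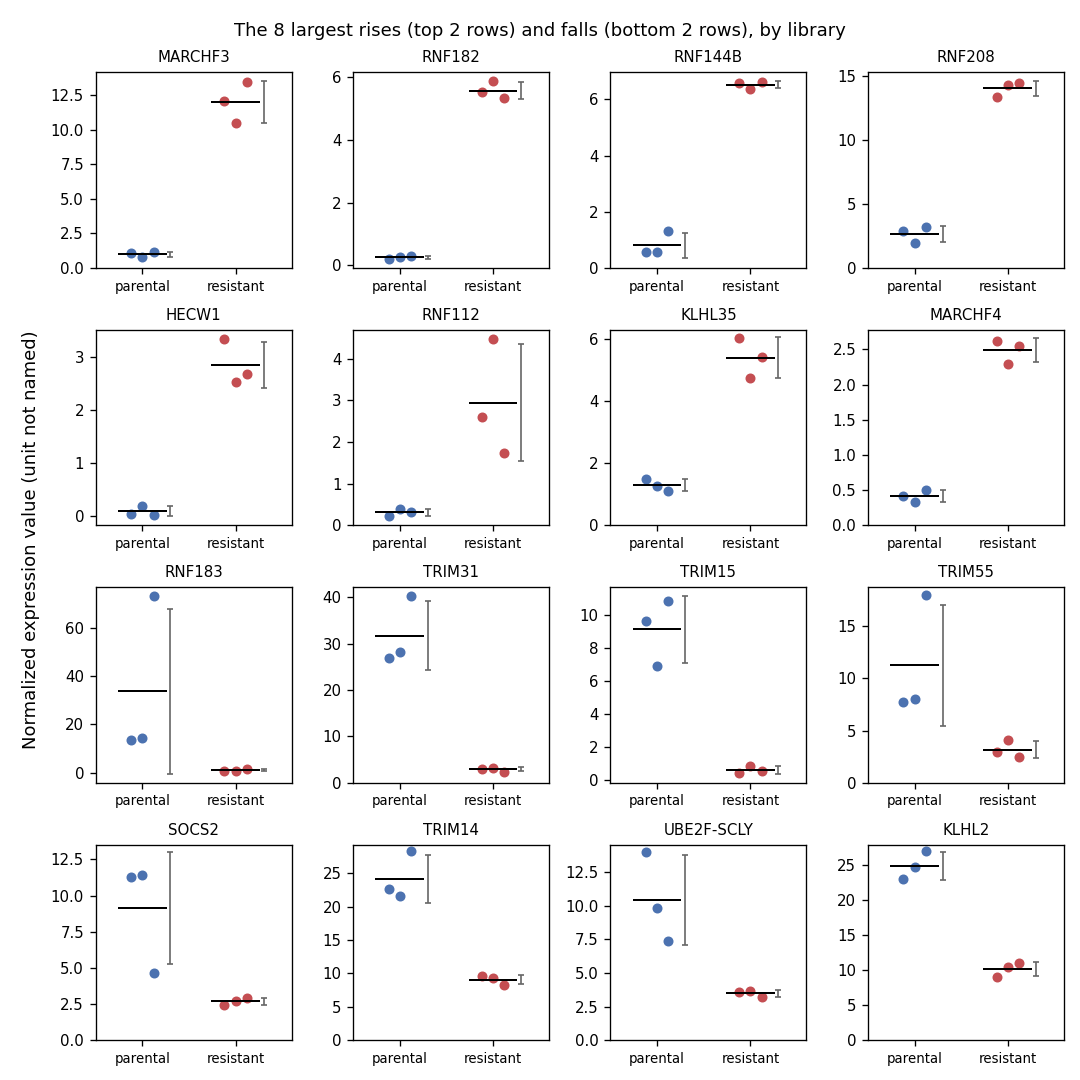
Vertical axes, the authors' normalized value (unit not named); each panel is 1 gene, with points for the 3 libraries of each line, a line at the mean and a bar of 1 SD beside it. The upper panels are the 8 largest rises and the lower panels the 8 largest falls by log2 fold change; parental library 3 stands high in RNF183 and TRIM55 and low in SOCS2.

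Adaptors of cullin ligases changed in both directions. Of 5 tested F-box genes, 3 rose and 2 fell. FBXO15, a marker of embryonic stem cells in mouse, had 0.26, 0.51 and 0.53 against 1.68, 1.62 and 3.78, a 5.45-fold rise (log2 fold change 1.18, SE 0.244, limma adjusted p = 0.00246), resistant library 3 being the highest. FBXO17, which belongs to the sugar-binding F-box proteins, rose 2.23-fold, from 9.35 ± 1.36 to 20.9 ± 0.301. FBXO16 rose 2.22-fold, from 12.2 ± 5.43 to 27 ± 2.26, but shares 2032 of its 3972 exonic bases with ZNF395 on the same strand. FBXL6 had 10.51, 8.94 and 7.34 against 3.9, 4.32 and 5.28 (log2 fold change -0.85, SE 0.177, limma adjusted p = 0.00255), and FBXO36 fell 2.2-fold. FBXL6 overlaps SLC52A2 on the opposite strand over 1069 exonic bases, and SLC52A2 was 27.6 ± 4.63 and 10.5 ± 0.334. FBXO39 was listed at 0 in the parental line and was 0.47 ± 0.165 in the resistant line. FBXL22, a cardiac F-box gene, had 0.07, 0.24 and 0.03 against 0.74, 0.38 and 0.51, a fold of 4.79 that became 10.9 without parental library 2.

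KLHL proteins link substrates to the cullin CUL3. KLHL2, an actin-binding member that targets WNK kinases (chromosome 4), had 22.98, 24.66 and 26.97 against 8.98, 10.43 and 10.95, a 2.46-fold fall (log2 fold change -1.22, SE 0.13, limma adjusted p = 9.39e-05). KLHL35 (chromosome 11) had 1.49, 1.26 and 1.12 against 6.04, 4.75 and 5.43, a 4.19-fold rise (log2 fold change 1.48, SE 0.147, limma adjusted p = 6.77e-05). KLHL13, which acts with KLHL9 on Aurora B in mitosis (chromosome X, 117897813 to 118117340), was too low to be tested. Its values were 0, 0.06 and 0 against 0.28, 0.22 and 0.25, and its parental signal came from library 2 alone.

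SOCS2 and SOCS3, feedback inhibitors of cytokine receptors and JAK kinases, both fell. SOCS2 (chromosome 12) had 11.28, 11.45 and 4.66 against 2.45, 2.69 and 2.92, a 3.4-fold fall (log2 fold change -1.37, SE 0.314, limma adjusted p = 0.00391). SOCS3 (chromosome 17) had 13.34, 12.99 and 26.55 against 8.92, 8.74 and 8.48, a 2.02-fold fall (log2 fold change -0.86, SE 0.266, limma adjusted p = 0.0153). Parental library 3 was thus low for SOCS2 and high for SOCS3. Without it the log2 fold changes were -1.75 and -0.54. PELI2, a Pellino ligase of interleukin-1 and Toll-like receptor signalling, was too low to be tested, with 0.27, 0.26 and 0.44 against 0.02, 0.08 and 0.01; its fold was 8.82 and, without resistant library 2, 21.6.

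Both rows with a UBE2 name fell. UBE2W, an E2 that modifies the amino terminus of proteins (chromosome 8), had 95.25, 103.05 and 91.07 against 43.09, 50.22 and 48.89, a 2.03-fold fall (log2 fold change -1.01, SE 0.114, limma adjusted p = 1.26e-04). UBE2F-SCLY, a readthrough of UBE2F and SCLY, had 14.01, 9.82 and 7.38 against 3.58, 3.68 and 3.2 (log2 fold change -1.31, SE 0.224, limma adjusted p = 9.64e-04). It shares 2311 of its 3195 exonic bases with SCLY and only 688 with UBE2F. SCLY was 16.6 ± 5.25 and 6.11 ± 0.994, so the reads of UBE2F-SCLY cannot be assigned with certainty. The deubiquitinase USP25 (chromosome 21) had 68.82, 68.34 and 43.57 against 23.11, 25.19 and 26.7, a 2.41-fold fall (log2 fold change -1.21, SE 0.194, limma adjusted p = 6.90e-04). The pseudogene USP32P1 was 1.39 ± 0.451 and 3.79 ± 0.629 and may share reads with its relatives (limma adjusted p = 0.00134, and 0.0597 with that same scaling).

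By position, 4 members lay on chromosome 8 beyond 50 Mb, TRIM55, UBE2W, RNF139 and FBXL6, and all 4 were lower. In that stretch 138 of the table's 164 genes were lower and 26 higher, so the members there went the way of most of their neighbours. Within 1 Mb of FBXL6 the table held 35 other genes, all 35 of them lower. The other chromosome 8 members, FBXO16 and RNF122, lie before 50 Mb and rose. On chromosome 17, 5 of 6 members were higher, SOCS3 being the exception, and 137 of the table's 232 genes there were higher and 95 lower.

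Parental library 3 was the parental library farthest from its line's median in 25 of the 41 tested members and in 2024 of 3274 tested genes with values in both lines. It was shifted toward the resistant values in 24 members and away in 17, beside 1780 and 1494 of those 3274 genes. The largest shifts in log2(value + 1) against the mean of the other parental libraries were 2.31 in RNF183, -1.13 in SOCS2, 1.09 in TRIM55 and 0.96 in SOCS3. The parental libraries spread more than the resistant ones in 32 of 41 members and 2465 of 3274 genes, with a median coefficient of variation of 0.234 against 0.0837 (0.259 and 0.102 over those 3274 genes).

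**Figure D4:**
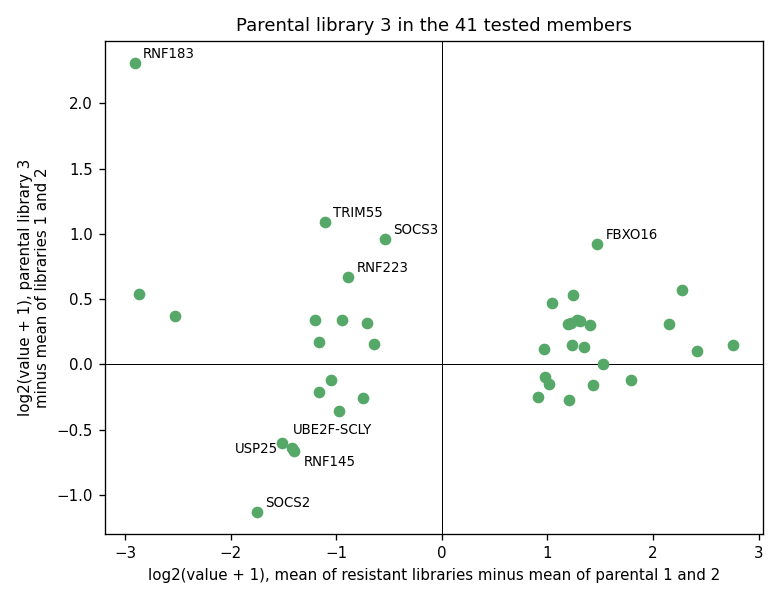
Horizontal axis, mean log2(value + 1) of the resistant libraries minus the mean of parental libraries 1 and 2; vertical axis, parental library 3 minus the mean of parental libraries 1 and 2 on the same scale; each point is 1 of the 41 tested members. RNF183 at 2.31, TRIM55 at 1.09, SOCS3 at 0.96 and SOCS2 at -1.13 lie farthest from 0 on the vertical axis.

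The rest of the ubiquitin system was followed in 7 further lists, of whose 278 genes 33 were in the table, 11 higher and 22 lower by the authors' deposited table. Of the 30 tested, 10 rose, 19 fell and 1 was not called by limma, against 52.5% higher and 45% lower over all genes tested. The median log2 fold change was -0.86, against 0.74 over all genes tested. Here too the signed medians mainly tell which direction held more genes and are not a typical change. These lists rest on the same table of genes picked for differing. None of 9 E1 genes and 2 of 43 proteasome genes were in the table. The proteasome genes were PSMB10, an immunoproteasome subunit, which fell 2.27-fold, from 134 ± 14.4 to 58.8 ± 2.56, and PSME2, a subunit of its activator, which fell 2.02-fold, from 261 ± 17.7 to 129 ± 12.2. Of 15 ubiquitin and ubiquitin-like genes the 1 in the table was UBD (FAT10), a cytokine-induced modifier, which fell 3.11-fold, from 19.7 ± 6.64 to 6.34 ± 0.155.

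Among 18 tested other RING and U-box ligases, 5 rose and 13 fell (20 of 95 in the table). TRAF1, an adaptor of TNF receptors, rose 9.12-fold, from 1.21 ± 0.115 to 11 ± 0.78, and DTX3 7.07-fold, from 1.3 ± 0.232 to 9.22 ± 0.607. MYLIP (IDOL), the ligase of the LDL receptor, fell 7.23-fold, from 4.46 ± 0.775 to 0.617 ± 0.0808, and DTX3L, the partner of PARP9, 3.1-fold, from 36 ± 5.05 to 11.6 ± 0.85. Of 22 other HECT ligases only HERC5, the ligase for ISG15, was in the table and fell, from 1.58 ± 0.412 to 0.537 ± 0.171. CBLC, a ligase of activated EGFR chosen after its value was seen, fell 3.38-fold, from 20.1 ± 3.73 to 5.95 ± 0.0473 (limma adjusted p = 6.81e-05).

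In the cullin list, 4 of 55 genes were in the table and 2 of the 3 tested rose. The scaffold CUL7 rose 2.3-fold, from 7.62 ± 0.35 to 17.5 ± 0.494, KCTD12 rose from 0.0933 ± 0.0404 to 2.15 ± 0.182, and the SOCS-box adaptor SPSB2 fell 3.78-fold, from 25.7 ± 3.57 to 6.79 ± 0.525. Of 40 other deubiquitinases 5 were in the table, 3 rose, 1 fell and 1 was not called. OTUD1 rose 4.11-fold, from 3.13 ± 0.655 to 12.9 ± 0.182, and CYLD, which trims non-degradative ubiquitin chains in NF-kB signalling, rose 2.73-fold, from 9.44 ± 1.06 to 25.8 ± 1.52. EIF3H, an initiation factor subunit that carries the MPN domain of some deubiquitinases, fell 1.94-fold, from 270 ± 50.9 to 139 ± 7.67, and MINDY4 was 2.16 ± 1.1 and 1.07 ± 0.351 without a call (limma adjusted p = 0.0618).

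**Figure D5:**
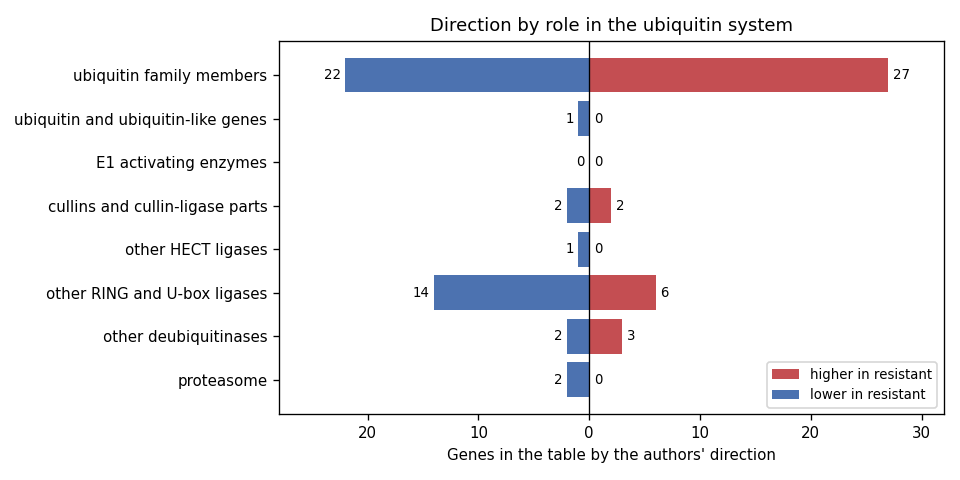
Horizontal axis, number of genes in the table that were higher (right) or lower (left) in the resistant line by the authors' direction; vertical axis, the 49 family members and 7 further lists. The members split into 27 higher and 22 lower, and the other RING and U-box ligases into 6 higher and 14 lower.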

How the data were processed

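Libraries were made with a TruSeq kit per the labels, whose extraction text speaks of retinas, and the submitters' processing notes name Bowtie 0.12.2 and the mouse build mm8. Both conflict with a human cell line and human gene IDs, so no step is taken from them. The deposited table gives normalized signal values per library and the authors' mean signal per line, together with the authors' ratio (fold change), log2 fold change, p-value and adjusted p-value, whose test the file headers do not name. Counts are not given, so depth and counting error are unknown.

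Groups came from the sample titles. Symbols were matched by gene ID (4414 matched, 25 not). Positions are those of GENCODE 29 on GRCh38; no human build of the authors' own is stated. By exonic overlap, 22 members share bases with another annotated gene, 17 of them with one on the opposite strand.

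The limma test (version 3.58.1, R 4.3.3) used log2(value + 1), a pseudocount of 1, and a mean-variance trend. It took the 3332 genes that reached 1 in 3 or more libraries and left out 1107. The threshold was a Benjamini-Hochberg adjusted p below 0.05. Log2 fold changes therefore understate changes of low genes, and linear folds divide the means of the lines. Simulated data were also put through the test, with a small part of the genes changed, all of them upward. The table differs from that setting, since most of its genes were called and in both directions, so nothing here rests on the simulation. Members and lists were chosen with earlier results of these data known. Named with each library's value were the 8 largest rises and 8 largest falls, the largest per family and direction, and HECW1 and KLHL13. Members whose fold 1 library moved by over 1.5 times were named too. For the largest changes the libraries of the lines could not overlap and the higher mean was at least 2. From the other lists, up to 2 genes per direction with the smallest adjusted p were named. Alternatives covered pseudocount, filter, scaling, trend, replicate block, threshold and leaving out each library. Figures used Python 3.11.15 with matplotlib 3.10.9. A gene of the table near TRIM31 is not reported here.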

Additional observations from a re-analysis of the deposited data

How the results depend on the processing

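The 41 tested members kept their direction under the alternative settings in which each could be tested. With at least a 2-fold change 8 of them lost their call: FBXL6, FBXO36, RNF125, RNF227, RNF39, SOCS3, TRIM32 and TRIM62. That left 19 members higher and 14 lower, beside 1434 higher and 1110 lower among all 3332 genes tested. At an adjusted p below 0.01 SOCS3 lost its call. Among all tested members, RNF227, TRIM62 and USP32P1 lost their call when libraries were given equal median log ratios (highest adjusted p 0.157, 0.0599 and 0.0597); that scaling moved the median of all genes by -0.54 on the log2 scale, and equal library sums by -0.20. With a filter at a value of at least 5 the higher members numbered 12 in place of 22, because 26 members were then tested. Over all genes that filter tested 2020 and called 987 higher and 1012 lower. With that same 2-fold minimum, 11 other ubiquitin genes were lower in place of 19. Leaving out each library gave 15 to 22 higher and 16 to 19 lower members, since the filter then tested fewer genes, and 9 to 10 higher and 15 to 18 lower other ubiquitin genes. Over all genes these fits tested 2766 to 2941 and called 1156 to 1752 higher and 1086 to 1444 lower. Without a filter 48 of 49 members were called, the exception being RNF150 (limma adjusted p = 0.0845). Of all 4439 genes, 2310 were then called higher and 1887 lower, so the members were close to the table as a whole. With the replicate number as a block the members split again into 22 higher and 19 lower and the other ubiquitin genes into 10 higher and 20 lower. All 3332 genes tested then gave 1750 higher and 1508 lower. Deviations from the line means correlated at 0.0256, 0.0258 and -0.0281 between same-numbered libraries. Between differently numbered ones they ran from -0.0946 to 0.0658. With 3 libraries per line these values cannot tell whether same-numbered libraries shared a culture or batch. Members below a value of 1 rest on values near the 2-decimal limit of the table.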
